A study of Mus musculus with 24 samples.

Results

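The genes described here are 9 members of the bone morphogenetic protein (BMP) system: the 5 ligand genes Bmp2, Bmp4, Bmp5, Bmp6 and Bmp7, and Nog, Grem1, Chrdl1 and Bmper, 4 genes of secreted BMP antagonists. They were taken by name from 3 tables of sorted mouse brain cells, which list 25471 distinct genes in all. The tables of E11.5 and E13.5 pericytes list all 9 genes, and the table of E13.5 endothelial cells lists 8, without Grem1. BMPs are dimeric growth factors that bind type I and type II receptor serine kinases, after which SMAD1, SMAD5 and SMAD9 enter the nucleus with SMAD4. Antagonists hold the ligands outside the cell, and TGF-beta, the neighbouring branch of the family, signals through ALK5 and SMAD2 or SMAD3 and shares SMAD4. In the developing head, BMPs come from the dorsal midline, the meninges and the mesenchyme around vessels, and they act on vessels, cartilage, bone and neural progenitors.

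Mutant embryos carried Pdgfrb-Cre, Alk5(flox/flox) and Zs/+, and control embryos carried Pdgfrb-Cre, Alk5(flox/+) and Zs/+. Every group therefore carried the Cre, which is active in pericytes and other mural and mesenchymal cells, a ZsGreen reporter and at least 1 floxed copy of Alk5, the older name of the receptor gene Tgfbr1. Pericytes, labelled as mesenchymal cells, were sorted from brains of 4 mutant and 4 control samples at E11.5 and of 4 mutant and 4 control samples at E13.5. Endothelial cells came from 3 mutant and 5 control samples at E13.5, and the labels mark all mutants with GMH-IVH. The comparisons ask which genes differ between mutants and controls while brain vessels grow. They do so in pericytes, where the Cre is active, and in endothelial cells of mutant and control embryos.

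Each table gives 1 mean of normalized read counts per group, the ratio of mutant to control, and the authors' p with its step-up adjustment (FDR), which is printed here as the adjusted p with a threshold of 0.05. No value per library was used, so overlap between the samples of 2 groups could not be described and read depth is unknown. A standard error (SE) below is the one that the ratio and the p imply together. The labels do not tell litters apart, so a p measures only the spread between these samples. Fewer cells of a type and less RNA per cell cannot be told apart in such bulk samples. Tgfbr1 over its whole length had a log2 ratio of 0.43 (adjusted p = 0.399) at E11.5, and at E13.5 one of 0.03 (adjusted p = 1.00) in pericytes and -0.11 (adjusted p = 0.859) in endothelium, by the authors' deposited tables. Reads over the floxed part were not analysed here. Pericyte markers stood at a median control percentile of 69.2 among the genes of E11.5 pericytes, at 78.5 in E13.5 pericytes and at 30.2 in the endothelial cells. Endothelial markers stood at 38.3, 32.5 and 98.5, and markers of fibroblasts and meninges at 93.7, 97.2 and 46.7, in the same order of tables. Markers of cartilage and bone progenitors stood at 68.8, 92.7 and 39.1, so at E13.5 they lay above the pericyte markers in the pericyte sort. Pecam1 and Cldn5, which define endothelium, are in neither pericyte table, and the pericyte gene Higd1b is in none of the 3 tables. Most other endothelial markers are listed there, with 8 of 12 in E11.5 pericytes and 10 of 12 in E13.5 pericytes. Xist, the RNA of the inactive X chromosome in female cells, had means of 5.73 in mutants against 36145 in controls at E13.5 among pericytes, by the authors' deposited table, so sex and genotype cannot be told apart there.

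At E11.5 all 4 antagonist genes fell in mutant pericytes, by 2.54-fold to 7.36-fold, while 1 of the 5 ligand genes, Bmp4, fell and none rose. Together 5 of the 9 genes fell, where 2.70% of the 19301 genes tested were called lower and 3.35% were called in either direction by the authors' deposited table. The 9 genes and the pathway lists below were chosen with earlier results of these data known. Their counts set beside the shares of all genes are therefore descriptions, not tests. With the test statistics of the E11.5 table rescaled so that their median matches chance, which takes most genes as unchanged, 0 of the 9 genes and 5 of all genes passed, and Chrdl1 had an adjusted p of 0.0579. The antagonists had a median log2 ratio of -2.06 and the ligands one of -0.74, against a median of -0.0044 over all genes tested by the authors' deposited table. Among genes of like level, 2.30% were called lower in the lowest 25% of mean levels, which holds Bmp6, Grem1 and Bmper. In the next 25%, which holds Bmp2, Nog and Chrdl1, 4.39% were called lower. The median log2 ratio of all genes varied with level, at -0.23 in the lowest 25%, -0.07 in the next and 0.10 in the highest 25%. The part of level in the values of the 9 genes was not tested.

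Chrdl1, a chordin-like protein that binds BMPs through cysteine-rich domains, gave the smallest p of the 9 genes. Its mean was 111.1 in mutant pericytes, against 301 in control pericytes, by the authors' deposited table. The log2 ratio was -1.44 (SE 0.23, adjusted p = 5.3e-07), which placed Chrdl1 ninth from the smallest p among all genes of the authors' deposited table. The gene lies on chromosome X (143285674 to 143394262, minus strand, mm10). Xist is not listed in the E11.5 table.

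Nog encodes noggin, which covers the receptor-binding faces of BMP dimers. Its mean of 36.5 in mutant pericytes stood against 92.8 in control pericytes, a log2 ratio of -1.35 (SE 0.30, adjusted p = 0.00131) by the authors' deposited table. Nog is a gene of 1695 exonic bases on chromosome 11 (89300638 to 89302332, minus strand, mm10).

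Grem1 and Bmper had the largest falls and the lowest levels of the antagonists at E11.5. Grem1 encodes gremlin 1, a cystine-knot protein that binds BMP2 and BMP4, and it had a mean of 6.96 in mutant pericytes, against 44.6 in control pericytes, by the authors' deposited table. The mutant level lay at the 0.834th percentile of the genes tested and the control level at the 21.3rd percentile, by means of the authors' deposited table. The log2 ratio of Grem1 was -2.68 (SE 0.62, adjusted p = 0.00258), so its 95% interval ran from -3.90 to -1.46, by the authors' deposited ratio and p-value. Bmper, a secreted binder of BMPs with von Willebrand type C domains, had a mean of 11.6 in mutant pericytes against 85.3 in control pericytes by the authors' deposited table. Its log2 ratio was -2.88 (SE 0.69, adjusted p = 0.00431), with a 95% interval from -4.24 to -1.52, by the authors' deposited ratio and p-value. The scale of the means is not stated, so how many reads lie behind these low values is unknown, and both intervals are wide.

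Promoter sequences of 5 members were searched, and those of the 3 among them that were called lower at E11.5 are shown. Whether these genes vary together from sample to sample is unknown. They come from RefSeq (GRCm38.p6, the mm10 assembly) and run 5′ to 3′ on the gene's own strand, from 250 bases before to 50 bases after the annotated start. Capitals mark matches, on either strand, to 3 motifs searched: GGCGCC, a GC-rich element of the kind SMAD1 and SMAD5 bind, CAGACA, which holds the SMAD box, and CACGTG, an E-box. GGCGCC and CACGTG read the same on both strands, and no matches of different motifs overlapped.
Grem1, chr2:113758599-113758898, minus strand: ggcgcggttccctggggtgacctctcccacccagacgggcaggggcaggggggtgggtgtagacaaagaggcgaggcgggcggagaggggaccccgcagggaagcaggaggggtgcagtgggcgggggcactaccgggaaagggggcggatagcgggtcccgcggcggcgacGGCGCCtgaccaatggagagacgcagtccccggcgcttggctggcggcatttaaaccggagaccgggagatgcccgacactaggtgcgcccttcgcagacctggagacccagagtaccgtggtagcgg
Bmper, chr9:23222826-23223125, plus strand: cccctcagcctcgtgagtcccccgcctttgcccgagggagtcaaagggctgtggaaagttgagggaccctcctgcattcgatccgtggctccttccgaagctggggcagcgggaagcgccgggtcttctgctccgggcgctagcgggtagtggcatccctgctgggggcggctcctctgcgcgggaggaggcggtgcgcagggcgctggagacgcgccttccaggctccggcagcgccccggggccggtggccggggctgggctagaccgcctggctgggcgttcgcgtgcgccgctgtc
Bmp4, chr14:46390620-46390919, minus strand: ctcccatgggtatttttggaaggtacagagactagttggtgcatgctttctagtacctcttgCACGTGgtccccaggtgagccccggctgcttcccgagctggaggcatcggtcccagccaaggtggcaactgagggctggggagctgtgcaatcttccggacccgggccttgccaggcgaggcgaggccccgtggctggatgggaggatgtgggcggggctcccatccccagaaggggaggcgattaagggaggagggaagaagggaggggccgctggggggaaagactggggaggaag

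The Grem1 promoter held 1 GGCGCC, beginning at position -78 from the start, and the Bmp4 promoter held 1 CACGTG, beginning at position -188. The Bmper promoter held 0 of the 3 motifs. The promoters of 2 ligand genes that were not called also held a match, 1 CACGTG at position -127 for Bmp6 and 1 CAGACA at position -135 for Bmp5. Of 32851 promoters of the same length, 11.9% held GGCGCC, 21.0% held CAGACA and 7.15% held CACGTG. The GC content was 70.7% for Grem1, 72.7% for Bmper and 64.0% for Bmp4, and 69.3% for Bmp6 and 43.3% for Bmp5, against a median of 52.7% over all promoters. The entries for Bmp2, Bmp7, Nog and Chrdl1 were not used here.

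Among the ligands, the closely related genes Bmp2 and Bmp4 had similar log2 ratios at E11.5, with Bmp4 just inside the threshold and Bmp2 just outside it. Bmp4 had a mean of 546 in mutant pericytes, against 911 in control pericytes, by the authors' deposited table. Its log2 ratio was -0.74 (SE 0.22, adjusted p = 0.0328). Bmp2 had a mean of 167 in mutant pericytes against 290.4 in control pericytes, for a log2 ratio of -0.80 (SE 0.26, adjusted p = 0.0623), by the authors' deposited table. BMP2 and BMP4 signal through the receptors BMPR1A and BMPR1B.

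Bmp5, Bmp6 and Bmp7 form the other ligand branch, which also uses the type I receptor ACVR1. Bmp5 was the 1 gene of the 9 with a positive log2 ratio at E11.5, with means of 429 in mutants against 383 in controls by the authors' deposited table (log2 ratio 0.16, SE 0.22, adjusted p = 0.739). Bmp7 had the highest mean of the 9 genes in both groups, 1201 in mutants against 1455 in controls, for a log2 ratio of -0.28 (SE 0.22, adjusted p = 0.507), by the authors' deposited table. The 95% interval of the Bmp7 log2 ratio, from -0.70 to 0.14, overlaps that of Bmp4, from -1.17 to -0.31. Bmp6 had means of 23.8 in mutants against 58.3 in controls by the authors' deposited table, for a log2 ratio of -1.29 (SE 0.59, adjusted p = 0.219). At an unadjusted p under 0.05, 7 of the 9 genes passed at E11.5, all but Bmp5 and Bmp7, against 17.7% of all genes by the authors' deposited table.

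**Figure D1:**
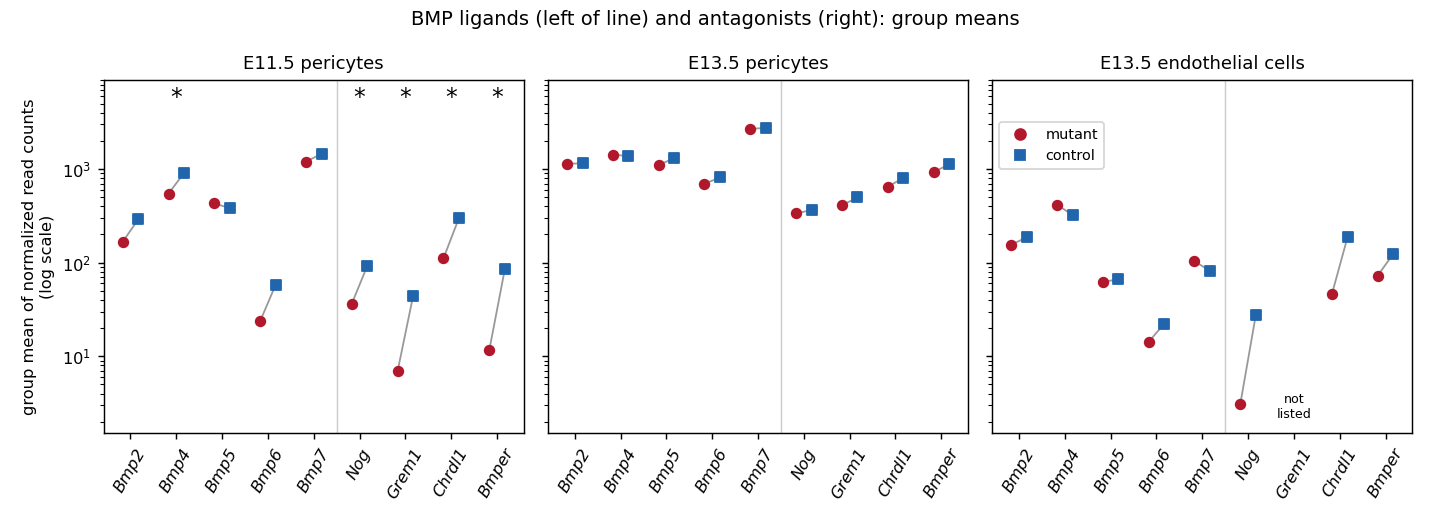
Group means of normalized read counts (log axis) of the 9 genes in mutant (red circles) and control (blue squares) cells, 1 panel per table, with grey lines joining the groups and stars over genes with a deposited adjusted p under 0.05. At E11.5 the mutant mean lies below the control mean for 8 of 9 genes, down to 6.96 for Grem1, while at E13.5 the paired points lie close together in pericytes.

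Divided by exonic length, which allows genes to be set side by side, the 5 ligands summed to 701 per kilobase in mutant and 959 in control pericytes at E11.5, by means of the authors' deposited table. The 4 antagonists summed to 42.1 per kilobase in mutants against 127.7 in controls. Bmp7 and Bmp4 led both groups, with 299 and 243 per kilobase in mutants and 362 and 405 in controls, so their order differed between the groups. Bmp5 and Bmp2 followed, and Nog and Chrdl1 stood above Bmp6, Bmper and Grem1 in both groups. Grem1 was the lowest of the 9, at 1.68 per kilobase in mutants against 10.7 in controls. No spread per library stands behind these levels, so whether neighbours in the order differ could not be tested.

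Other genes of the pathway were lower in part. Of 58 further BMP pathway genes tested at E11.5, 10 fell and 0 rose, and the median log2 ratio was -0.36, with 2.70% of all genes called lower by the authors' deposited table. Among 15 other secreted antagonists and binders 3 fell. They were Fst, which encodes the activin-binding protein follistatin, Nbl1, a gremlin relative, and Chrd, which encodes chordin, with log2 ratios of -1.85, -1.17 and -0.92 by the authors' deposited table. Bmp1, which despite its name encodes a protease that cleaves chordin and procollagens, fell, at a log2 ratio of -0.95 (SE 0.20, adjusted p = 0.000409) by the authors' deposited table. Of 12 receptors and co-receptors 2 fell, the type I receptor gene Acvr1 (log2 ratio -1.23) and the co-receptor gene Rgmb (log2 ratio -0.62), by the authors' deposited table.

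Gdf6, a ligand of joint and skull development, was the 1 of 7 other ligand genes that fell, with a log2 ratio of -1.73 by the authors' deposited table. None of 8 SMAD genes and regulators passed, although all 8 had a negative log2 ratio, with a median of -0.49 by the authors' deposited table. Of 17 genes that BMP signalling induces in various tissues, 3 fell and 0 rose, where 2.70% of all genes were called lower. They were Id4, an inhibitor of helix-loop-helix factors, and the skeletal transcription factors Dlx5 and Runx2. Their log2 ratios were -1.56, -2.65 and -3.79 by the authors' deposited table, while the list had a median of -0.29, with 13 of 17 below 0. The other Id genes, Id1, Id2 and Id3, were not called, at -0.29, -0.35 and -0.02.

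**Figure D2:**
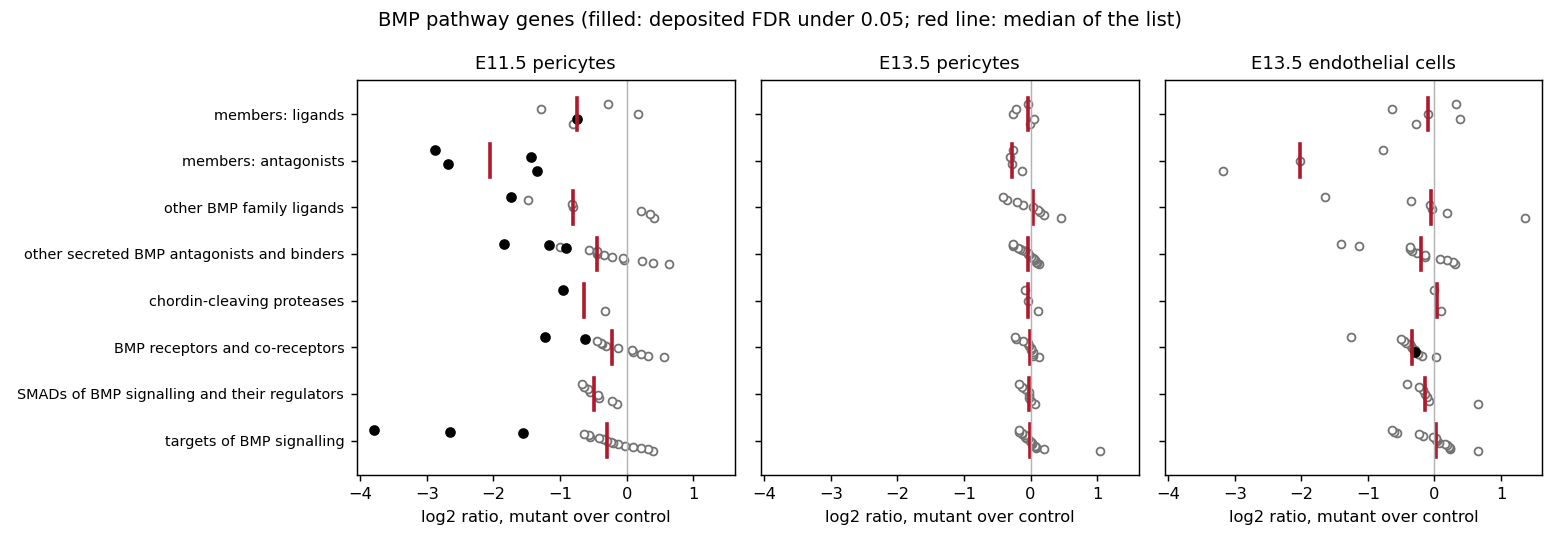
Log2 ratio of mutant to control for each tested gene of the members and of 6 lists of BMP pathway genes, 1 panel per table, with filled points for a deposited adjusted p under 0.05 and a red line at the median of each list. At E11.5 the 4 antagonists, with a median of -2.06, lie left of most pathway genes, and at E13.5 no pericyte point is filled.

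Several lists of cell type markers, that of pericytes among them, had lower summed levels in mutants at E11.5, where 2.70% of all genes were called lower. Not all lists did. Smooth muscle markers had 1 of 6 higher and 0 lower, and neuronal markers had a median log2 ratio of 0.04. Meningeal and fibroblast markers had 4 of 12 lower and 0 higher, and their summed level was 81742 in mutants against 108843 in controls, by the authors' deposited table. Skeletal progenitor markers had 2 of 12 lower, again Runx2 and Dlx5, with sums of 40227 in mutants against 44402 in controls. Of 11 pericyte markers 5 fell, with sums of 11192 in mutants against 14118 in controls. Among 8 endothelial markers 1 fell, and the sums were 649 in mutants against 1221 in controls. Among 10 myeloid markers 2 fell, with sums of 1098 in mutants against 2142 in controls, and no listed marker of these lists was at 0 in either group of the authors' deposited table. The part of these markers in the fall of the antagonists was not tested.

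At E13.5 none of the 9 genes passed in pericytes, where 0.388% of 20084 genes were called by the authors' deposited table. At an unadjusted p under 0.05 1 gene passed, Grem1, against 4.06% of all genes. The log2 ratios of the 9 genes ran from -0.32 to 0.05, and the 4 antagonists were all below 0, with a median of -0.28, by the authors' deposited table.

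Grem1 had a mean of 409 in mutant pericytes against 498 in control pericytes at E13.5, a log2 ratio of -0.28 (SE 0.13, adjusted p = 1.00), by the authors' deposited table. Bmper had means of 928 in mutants against 1119 in controls (log2 ratio -0.27, SE 0.26), and Nog had means of 335 in mutants against 366 in controls (log2 ratio -0.12, SE 0.16), by the authors' deposited table. Chrdl1 had means of 646 in mutants against 804 in controls, for a log2 ratio of -0.32 (SE 0.47). The 95% interval of the Chrdl1 log2 ratio ran from -1.25 to 0.62, and it overlaps the interval at E11.5, from -1.88 to -0.99. Chrdl1 is X-linked, and the Xist means given above differed between these groups; the part of sex in the Chrdl1 value was not tested.

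The 5 ligands had log2 ratios between -0.26 and 0.05 at E13.5. Bmp7 had means of 2687 in mutant and 2755 in control pericytes by the authors' deposited table, and its log2 ratio of -0.04 had a 95% interval from -0.16 to 0.09. Bmp2 had means of 1139 in mutants against 1150.2 in controls (log2 ratio -0.01, SE 0.14), and the log2 ratio was 0.0052 when the means were scaled to their sums. Bmp4 had means of 1425 in mutants against 1378 in controls (log2 ratio 0.05, SE 0.15), by the authors' deposited table. Its 95% interval ran from -0.25 to 0.35, against one from -1.17 to -0.31 at E11.5. The difference between the 2 Bmp4 log2 ratios, tested below, did not pass (adjusted p = 0.121). Bmp5 had means of 1097 in mutants against 1316 in controls (log2 ratio -0.26, SE 0.39), and Bmp6 had means of 696 in mutants against 813 in controls (log2 ratio -0.22, SE 0.16), by the authors' deposited table. None of 63 further pathway genes passed in E13.5 pericytes, and their median log2 ratio was -0.02.

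**Figure D3:**
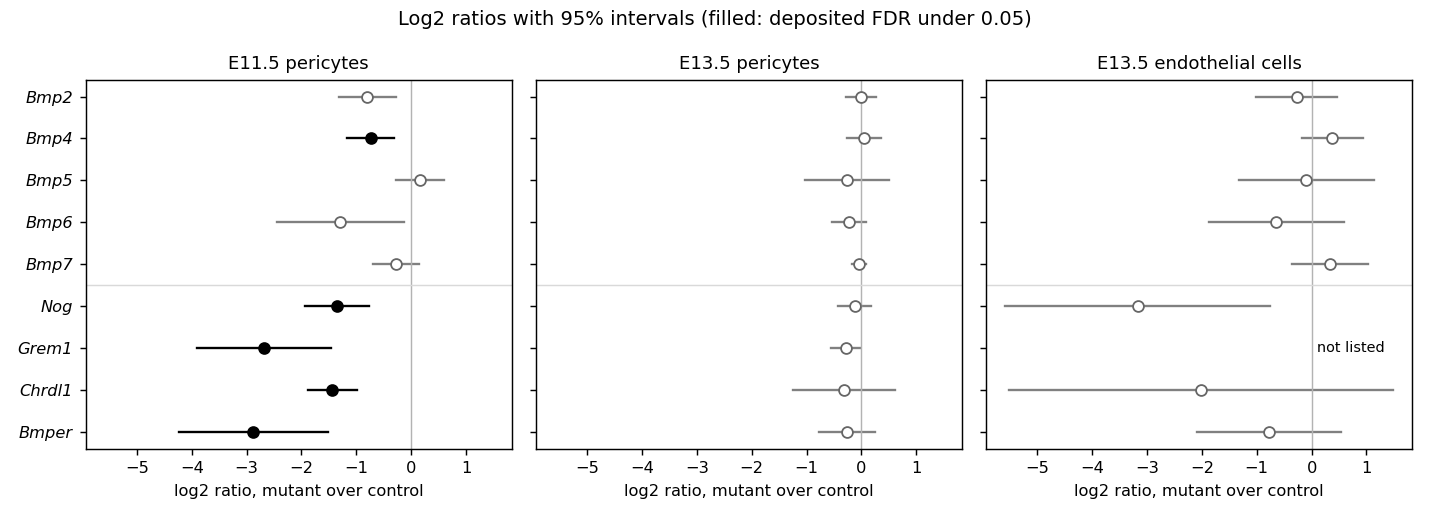
Log2 ratio of mutant to control for each gene with the 95% interval implied by the authors' p, 1 panel per table, with filled points for a deposited adjusted p under 0.05. The intervals of the 4 antagonists lie wholly below 0 at E11.5, between -4.24 and -0.76, and the endothelial intervals of Nog and Chrdl1 are the widest.

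The 2 pericyte tables, which share no library, were compared by the difference between their log2 ratios. Sex and genotype cannot be told apart at E13.5, by the Xist means given above, and Xist is not listed at E11.5. A part of sex in these differences therefore cannot be told apart from stage. The difference passed for 3 of the 9 genes, Nog, Grem1 and Bmper, against 1.43% of the 18267 genes tested. An unadjusted p under 0.05 was found for 6 of the 9, against 13.3% of all genes. Grem1 differed by -2.39 (SE 0.64, adjusted p = 0.0222), Bmper by -2.61 (SE 0.74, adjusted p = 0.0372) and Nog by -1.22 (SE 0.34, adjusted p = 0.0307), as E11.5 minus E13.5 on the log2 scale from the authors' deposited ratios. Chrdl1 differed by -1.12 (SE 0.53, adjusted p = 0.321) and Bmp4 by -0.79 (SE 0.27, adjusted p = 0.121), neither past the threshold. With each table's spread rescaled as above, which was tried only after seeing the data, 0 of the 9 differences passed, with adjusted p of 0.982 for Grem1, 1.00 for Bmper and 0.959 for Nog.

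The levels of these genes also stood at different places in the 2 pericyte tables. The tables were normalized separately, so levels are given as percentiles among the genes tested in each table, with no test. Grem1 lay at the 52.8th percentile at E13.5 and the 0.834th at E11.5 in mutant pericytes, and at the 57.1st and 21.3rd in control pericytes. Bmper lay at the 70.7th percentile at E13.5 and the 5.05th at E11.5 in mutants, and at the 74.9th and 30.5th in controls. Bmp6 showed the widest step of the ligands, with the 64.3rd percentile at E13.5 and the 14.9th at E11.5 in mutants and the 67.8th and 25.2nd in controls. Bmp4 stood at the 79.8th percentile at E13.5 and the 65.3rd at E11.5 in mutants, and at the 79.0th and 77.9th in controls, so in controls its place was nearly the same at both stages.

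Per kilobase of exon, Bmp7 and Bmp4 led at E13.5 as well, with 668 and 634 in mutants and 685 and 613 in controls, by means of the authors' deposited table. Grem1 and Chrdl1 were the lowest, with 98.5 and 95.6 per kilobase in mutants and 120.0 and 118.9 in controls. Exons of Bmp6 overlap those of Txndc5 on the opposite strand, and whether counting used strand is not stated in the sources used here, which makes the Bmp6 value uncertain. Txndc5 had means of 3272 in mutants against 3993 in controls at E11.5, far above those of Bmp6. Exons of Bmp4 and Bmp5 overlap the antisense genes Gm15217, which is in none of the tables, and Gm26903, whose highest mean was 45.5.

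**Figure D4:**
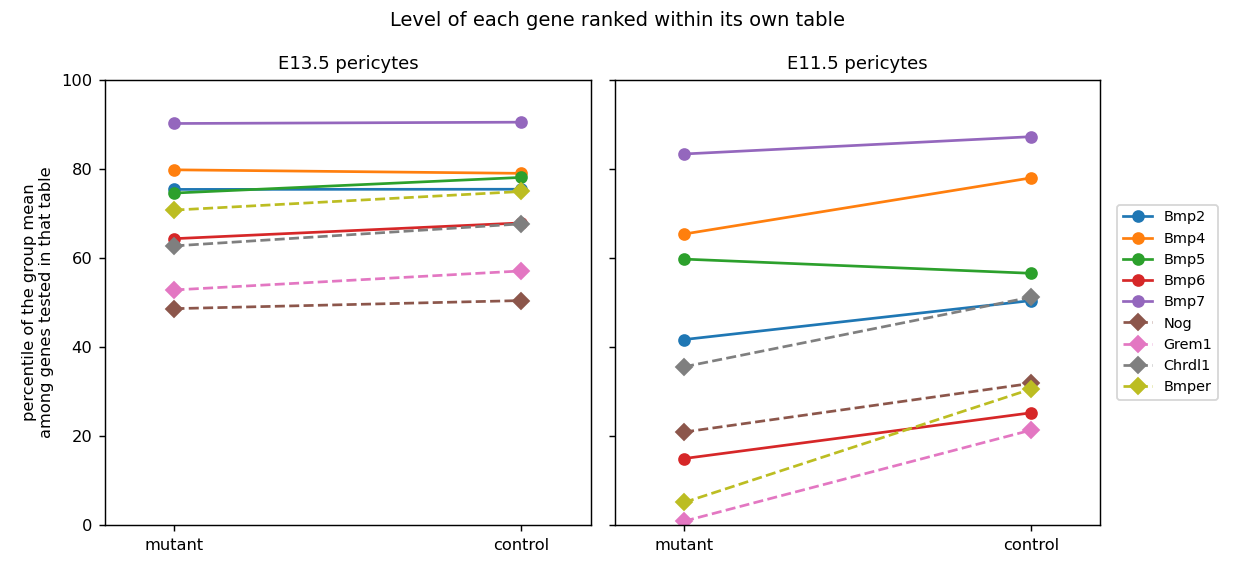
Percentile of each gene's group mean among the genes tested in its table, for mutant and control pericytes at E13.5 (left panel) and E11.5 (right panel), with circles and full lines for ligands and diamonds and broken lines for antagonists. At E13.5 each line is nearly level, and at E11.5 Grem1 and Bmper stand at 0.834 and 5.05 in mutants, against 21.3 and 30.5 in controls.

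In E13.5 endothelial cells none of the 8 listed genes passed, where 7.30% of 18132 genes were called by the authors' deposited table. At an unadjusted p under 0.05 1 gene passed, Nog, against 20.0% of all genes. Bmp4 was the most abundant of the 8, with means of 418 in mutant and 321 in control endothelial cells, at 186 and 143 per kilobase, by the authors' deposited table. Its log2 ratio was 0.38 (SE 0.29, adjusted p = 0.499). Bmp2 had means of 155 in mutants against 187 in controls (log2 ratio -0.27, SE 0.38), and Bmp7 had means of 103.1 in mutants against 82.0 in controls (log2 ratio 0.33, SE 0.35), by the authors' deposited table. Bmp5 and Bmp6 had means of 62.1 and 14.2 in mutants and 66.6 and 22.3 in controls, with log2 ratios of -0.10 (SE 0.63) and -0.65 (SE 0.63), by the authors' deposited table.

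The 3 antagonists listed in endothelial cells had wide errors. Nog had a mean of 3.08 in mutants against 27.8 in controls, for a log2 ratio of -3.17 (SE 1.23, adjusted p = 0.0955), by the authors' deposited table. Chrdl1 had means of 46.2 in mutants against 187 in controls, for a log2 ratio of -2.01 (SE 1.79, adjusted p = 0.583), and its 95% interval ran from -5.51 to 1.49. Bmper had means of 72.8 in mutants against 124.6 in controls, for a log2 ratio of -0.77 (SE 0.67, adjusted p = 0.572), by the authors' deposited table.

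In the endothelial sort, several lists of markers for non-endothelial cells differed between the groups. All 8 erythroid markers were called higher, with sums of 1710961 in mutants against 63576 in controls, by the authors' deposited table. Of 10 myeloid markers 3 were called higher, Aif1, Tyrobp and Fcer1g, with sums of 22328 in mutants against 12954 in controls. Of 5 markers of choroid plexus and roof plate 1 was called higher, the roof plate gene Lmx1a, with means of 179 in mutants against 20.7 in controls (log2 ratio 3.12, adjusted p = 0.00234), by the authors' deposited table. The 11 markers of cartilage and bone progenitors had a median log2 ratio of -0.08, with 6 below 0 and 0 past the threshold. Their sums of 3610 in mutants against 10984 in controls rest on Sox9, Col2a1 and Acan, which were singled out after their values were seen, with means of 1200, 481 and 67.2 in mutants, against 4064, 4151 and 994 in controls. The other 8 of these markers had log2 ratios from -0.63 to 1.01. The 10 pericyte markers tested summed to 3203 in mutants against 3968 in controls, with 0 past the threshold. The part of these cells in the antagonist values was not tested. The difference between the log2 ratios of endothelial cells and pericytes at E13.5 passed for 0 of the 8 genes, against 3.94% of the 16920 genes tested; for Nog, the 1 gene with an unadjusted p under 0.05, where 15.6% of genes had one, it was -3.05 (SE 1.24, adjusted p = 0.169).

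Of 52 further pathway genes tested in endothelial cells 1 fell, a share near the 2.19% of all genes called lower, and 0 passed with no filter on low genes. It was the type II receptor gene Bmpr2, with means of 2823 in mutants against 3455 in controls and a log2 ratio of -0.29 (SE 0.10, adjusted p = 0.0447), by the authors' deposited table. The median of the 52 was -0.15, against -0.01 over all genes. Of 12 receptors and co-receptors 11 had a negative log2 ratio, with a median of -0.35. The 12 endothelial markers in these cells had a median log2 ratio of -0.22, with 8 below 0. Their sums were 131181 in mutants against 151258 in controls. Among these markers 1 was called lower, Kdr, with a log2 ratio of -0.44 (adjusted p = 0.0209), by the authors' deposited ratios. The part of lower endothelial genes in the Bmpr2 and receptor values was not tested.

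Genes whose 3 log2 ratios lay nearest to those of a member were sought among 16479 genes tested in all 3 tables, by Euclidean distance over the 3 comparisons. The nearest to Chrdl1 were Col27a1, S100b and Pcdhb6, at distances of 0.31, 0.32 and 0.41 on the log2 scale. Those nearest to Nog, Col11a2, Cspg4 and Zfp385b, lay farther off, at 0.58, 0.63 and 0.71. For Bmper they were Gm38287, Wipf3 and She, at 0.40, 0.42 and 0.53, and for Bmp4 they were Chmp4b, Fcgrt and Tarsl2, at 0.05, 0.06 and 0.07. Grem1 has no endothelial value and was left out of this search. The SEs of the endothelial log2 ratios exceed these distances, at 1.79 for Chrdl1, 1.23 for Nog, 0.67 for Bmper and 0.29 for Bmp4. Of the neighbours, only Col27a1, Cspg4, Wipf3 and She were called at E11.5. Whether any neighbour behaves like its member was not tested.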

How the data were processed

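Messenger RNA of sorted cells was sequenced, and the values are in 3 tables of the authors' own comparisons. The submitters' processing notes name build mm10, Bowtie2, Partek and DESeq2, with no versions; counting, filters and model are not given in the sources used here. Deposited columns, per the file headers, are a p-value, its step-up FDR, a mutant-to-control ratio, a fold change with sign (a score) and a least-squares mean for each group. These group means by the authors were treated as a signal of normalized reads on an unstated scale, so depth is unknown. The deposited FDR equals the Benjamini-Hochberg value over 19301 genes at E11.5 and, at E13.5, 20084 in pericytes and 18132 in endothelium.

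Deposited ratios were put on the log2 scale. The SE of a log2 ratio is the log2 ratio divided by the normal deviate that their two-sided p gives, as in a Wald test, and a 95% interval spans the normal range. Differences of log2 ratios were tested with a normal test and adjusted over all genes tested in both tables. Steps were tested on simulated data with known answers. Positions and exonic lengths come from GENCODE M21 (mm10), levels per kilobase are means over 1000 exonic bases, and promoters come from RefSeq. The tools were scipy 1.17.1, numpy 2.4.6 and pandas 2.3.3 in Python 3.11.15, and figures were drawn with matplotlib 3.10.9.

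Members, lists, motifs and tests were chosen with earlier results of these data known. All 9 members are named. Of 73 pathway genes in 6 lists, up to 8 called genes per comparison with the smallest p were to be named. Chrd and Rgmb, which ranked after these at E11.5, were added after their values were seen. So were Id1, Id2, Id3, Col2a1, Acan, Xist and Txndc5 with the other overlapping genes. Of the 11 marker lists, those of smooth muscle, neural crest, neural progenitors, neurons and choroid plexus are summarised in the closing section.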

Additional observations from a re-analysis of the deposited data

Results flagged for a closer look

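The log2 ratio of mutant to control differed between the stages of pericytes for 3 of the 4 antagonist genes, against 1.43% of the 18267 genes tested. Each difference was taken as E11.5 minus E13.5. The remaining antagonist gene, Chrdl1, differed by -1.12 and did not pass (adjusted p = 0.321). Grem1 had a log2 ratio of -0.28 at E13.5 and -2.68 at E11.5, a difference of -2.39 (adjusted p = 0.0222). Bmper had -0.27 at E13.5 and -2.88 at E11.5, a difference of -2.61 (adjusted p = 0.0372), and Nog had -0.12 at E13.5 and -1.35 at E11.5, a difference of -1.22 (adjusted p = 0.0307). All 3 genes stood higher among the genes of their table at E13.5 than at E11.5, in mutants and in controls. All 3 differences lost their call when the spread was rescaled. Sex and genotype cannot be told apart in the E13.5 pericytes, so a part of sex in these differences cannot be told apart from stage.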

How the results depend on the processing

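Of the 5 members called at E11.5, 0 passed when the spread was rescaled, and the number of members whose ratios differ between the pericyte stages was then 0 in place of 3. That setting widens the spread of the E11.5 table by a factor of 1.51. At an unadjusted p under 0.05 the members passing were 1 in E13.5 pericytes and 1 in endothelial cells, in place of 0. The shares of all genes were 4.06% and 20.0%. At an FDR under 0.1 Nog made it 1 in endothelial cells, where 1950 of all 18132 genes passed. Further pathway genes called in endothelial cells were 3 of 52 at this FDR and 0 with no filter on low genes, in place of 1. Scaled to the summed means, which moved endothelial log2 ratios by -0.13, Bmp2 had 0.0052 in E13.5 pericytes in place of -0.01, and Bmp2 passed at E11.5 with a log2 ratio of -0.84 (adjusted p = 0.0389). The other 50 values of single members kept their sign and their side of the threshold under both scalings. No paired analysis was possible because the tables hold 1 mean per group and no values per library, and for the same reason leaving out each replicate was not run. Depth per library is unknown, which limits the values of genes with a group mean under 30, Grem1, Bmper and Bmp6 at E11.5 and Nog and Bmp6 in endothelial cells.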

Other observations

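The summed level per kilobase of the 5 member ligands was 16.7 times that of the 4 member antagonists in mutant E11.5 pericytes. In control E11.5 pericytes it was 7.51 times, by means of the authors' deposited table. Other secreted antagonists and binders are left out of these sums, so the quotients do not give the balance of all ligands and antagonists. The 16 of them listed at E11.5 had summed means, not per kilobase, of 22357 in mutants against 28869 in controls. In E13.5 pericytes the same quotient was 3.55 in mutants against 3.14 in controls, and in E13.5 endothelial cells, without Grem1, it was 11.6 in mutants against 3.41 in controls. No error can be given for these quotients, Bmp4 and Bmp7 make up most of the ligand sums in pericytes, and RNA levels say nothing of secreted protein.

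Markers of further cell types were summarised for E11.5 pericytes, where 2.70% of all genes were called lower and 3.35% in either direction. The smooth muscle list had 1 of 6 higher, the intermediate filament gene Des, and a median log2 ratio of 0.15 by the authors' deposited table. Neural crest and Schwann cell markers had 1 of 5 lower, with a median of -0.84. The summed level of that list was nevertheless higher in mutants, at 3713 against 3099 in controls. Among 7 markers of neural progenitors 1 fell, with a median of -0.24. Of 5 neuronal markers and 9 markers of choroid plexus and roof plate, a source of BMPs in the embryonic brain, 0 passed, with medians of 0.04 and -0.25. The 3 erythroid markers tested at E11.5 had a median of -1.09, with 0 past the threshold.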
